A study of Mus musculus with 12 samples.

Results

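The 38 genes described here encode the enzymes that carry glucose carbon through glycolysis, the pentose phosphate pathway, the step from pyruvate into the mitochondrion and the citrate cycle. They were chosen by name. Of these genes, 10 act in hexose phosphorylation and upper glycolysis, 8 in lower glycolysis and lactate formation and 6 at the entry of pyruvate into the mitochondrion. Another 5 act in the pentose phosphate pathway, and 9 were grouped with the citrate cycle, among them the cytosolic isozymes Idh1 and Mdh1. Each symbol was looked up among the 22947 genes of the table, and all 38 were found. Of them, 37 were among the 12775 genes tested, which reached 1 FPKM in at least 3 libraries. The remaining gene, Aldoc, the brain-type aldolase, stayed between 0.0956 and 0.488 FPKM and was not tested. FPKM counts sequenced fragments relative to the length of the transcript and the size of the library, so levels of different genes can be compared per length.

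The tissue was epididymal white adipose tissue (eWAT), the visceral fat pad beside the epididymis, taken whole from male C57BL/6J mice. From 5 weeks of age the mice received 1 of 4 diets for 16 weeks, and they were 21 weeks old at sampling. The study states that all mice were fasted for 12 hours before sampling, so the levels here are those of fasted mice. The ND group ate a normal diet and the HFD group a high-fat diet. The CLE group ate the high-fat diet with 1.5% (w/w) of an ethanol extract of chrysanthemum leaf, and the LU group ate the high-fat diet with 0.003% (w/w) luteolin, a plant flavone. The mRNA of 3 mice per group was sequenced, 12 libraries in all. The study calls these mice representative of their group, and how they were picked is not given in the sources used here. The totals over genes lay between 435095 and 455040 FPKM, and the depth is unknown because these values keep no read counts. The titles of 4 libraries (those of CLE mouse 4, LU mouse 2 and ND mice 3 and 4) carry a letter R whose meaning the labels do not give. With this letter as a covariate, 0 of the 12775 genes differed by it at a limma adjusted p under 0.05. Of the 37 members, 2 had an unadjusted limma p under 0.05. With 4 such libraries spread unevenly over the groups, this test could miss differences.

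Glycolysis splits glucose into pyruvate in the cytosol, with hexokinase and phosphofructokinase as its main control points and pyruvate kinase as its last step. Pyruvate is then reduced to lactate, oxidised to acetyl-CoA by the pyruvate dehydrogenase complex, or carboxylated to oxaloacetate by pyruvate carboxylase. In white fat, pyruvate carboxylase and the export of citrate feed fatty acid synthesis, and the pentose phosphate pathway and cytosolic isocitrate dehydrogenase supply NADPH for it. Macrophages that enter fat in obesity use glycolysis as well, and some isozymes are mainly found in blood cells.

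Differences were tested with limma after adding 1 FPKM to each value and taking log2, and a gene was called when its Benjamini-Hochberg adjusted p was under 0.05 and its fold change on that scale was over 1.5. Between the HFD and ND groups, 6 of the 37 tested members were called higher (Hk1, Hk3, Tpi1, Pkm, G6pdx and Idh1) and 4 lower (Pdha1, Pdk2, Pcx and Tkt), where 14.9% of all tested genes were called higher and 10.8% lower. By the adjusted p alone, 8 members were higher and 12 lower, beside 25.7% and 24.8% of all tested genes. Compared with the HFD group, the CLE group had 3 members called higher (Pfkfb3, Ldhb and Pdk2) and 3 lower (Hk3, Pkm and Idh1), beside 6.33% and 10.1% of all genes. The adjusted p alone gave 8 members higher and 4 lower for CLE, beside 15.5% and 18.1% of all genes. In the LU group, 2 members were called higher than in the HFD group (Ldhb and Pdk2) and 3 lower (Hk3, Pkm and Idh1), beside 4.81% and 7.64% of all genes. By the adjusted p alone, 3 members were higher and 3 lower for LU, beside 13.2% and 13.6%. By the call rule the members' shares were near those of all genes, and the members moved in both directions. In HFD against ND the members had a median log2 fold change of 0.01, beside -0.02 over all genes. In LU against HFD it was -0.03, beside 0.03 over all genes. The comparisons of CLE and of LU with HFD share the HFD libraries, so their values are given side by side and are not independent of each other or of HFD against ND.

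**Figure D1:**
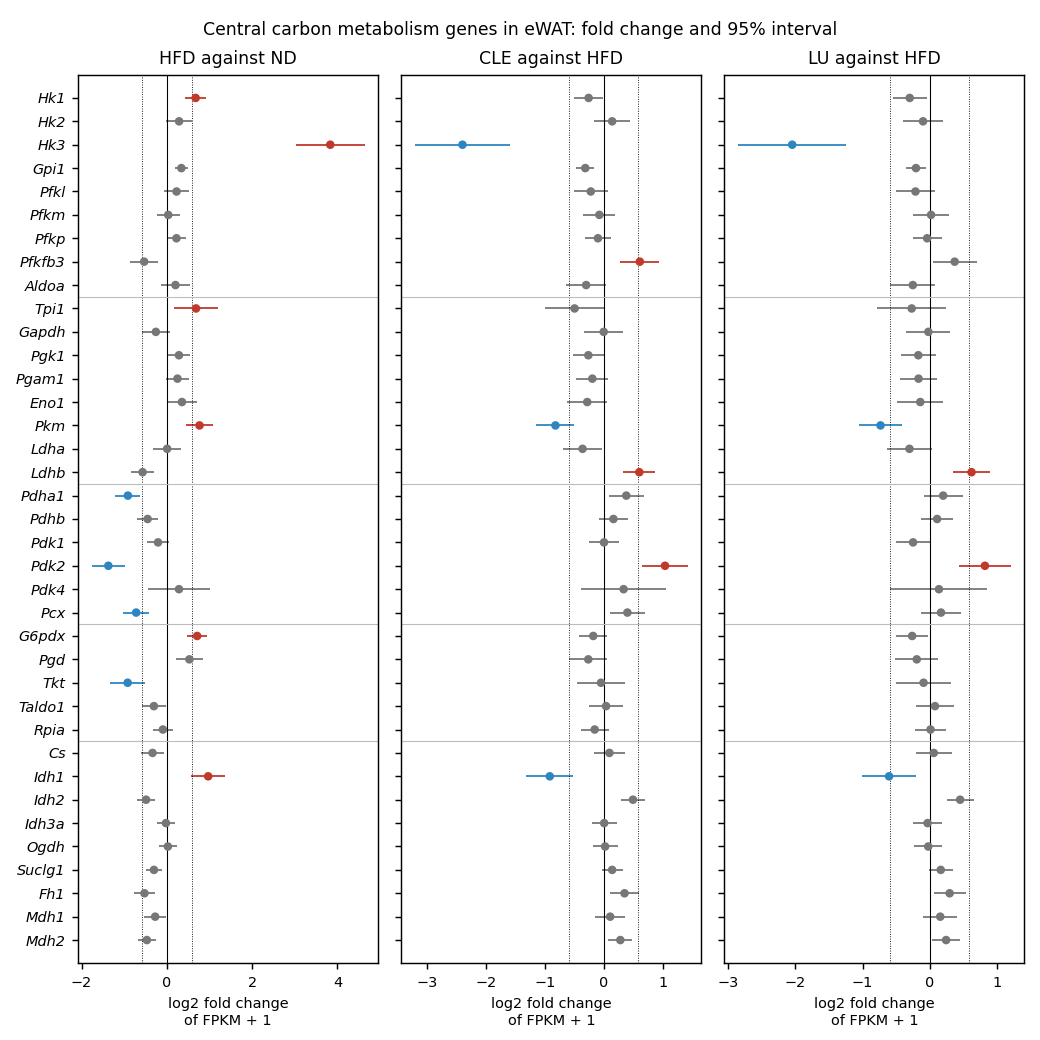
Log2 fold change of FPKM + 1 (x axis) for the 37 tested genes (y axis, in pathway order, with lines between the 5 groups of enzymes) in HFD against ND, CLE against HFD and LU against HFD. Points are limma estimates, bars their 95% intervals, red and blue mark genes called higher and lower, and dotted lines mark a fold change of 1.5, and the x scale differs between panels. Hk3 stands apart at 3.83, -2.40 and -2.05. The points of the genes grouped with the citrate cycle, other than the cytosolic Idh1, stay between the dotted lines.

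Hexokinases phosphorylate glucose on its entry into the cell. Hk3, the isozyme best known from myeloid blood cells, had the largest fold change of the 37 members in all 3 of these comparisons. Its level was 1.30, 1.72 and 1.98 FPKM in the ND mice, 40.9, 33.3 and 36.4 FPKM in the HFD mice, 3.35, 4.96 and 13.03 FPKM in the CLE mice and 7.40, 5.49 and 12.9 FPKM in the LU mice. Every HFD mouse was above every other mouse, and CLE mouse 11 and LU mouse 8 were the highest of their groups. Hk3 rose in HFD against ND by 3.83 ± 0.37 (SE, limma adjusted p = 8.82e-06) on the log2 scale. It fell in the CLE group compared with the HFD group, with a log2 fold change of -2.40 ± 0.37 (SE, limma adjusted p = 0.000539), and in the LU group, with -2.05 ± 0.37 (SE, limma adjusted p = 0.0023). Because 1 FPKM is added before the logarithm, these values understate the change of a gene this low in ND: the mean level was 1.66 ± 0.345 FPKM (SD, n = 3 mice) in ND and 36.9 ± 3.81 FPKM (SD, n = 3 mice) in HFD. Hk3 was still above ND in the supplemented groups, by 1.43 ± 0.37 (SE, limma adjusted p = 0.0471) in CLE and 1.78 ± 0.37 (SE, limma adjusted p = 0.00999) in LU. The call for CLE against ND was lost on leaving out ND mouse 2, 3 or 4, HFD mouse 12, 15 or 18, CLE mouse 4 or 11, or LU mouse 2, with log2 fold changes from 0.94 to 1.56 and limma adjusted p from 0.0650 to 0.118. It was also lost with the letter R as a covariate, at a log2 fold change of 1.40 (adjusted p = 0.0779, limma). Leaving out the 4 libraries that carry the letter keeps 1 ND library. The log2 fold changes against ND were then larger, 1.77 for CLE and 2.05 for LU, and neither was called (adjusted p = 0.198 and 0.112, limma).

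The 250 bases before the RefSeq start of Hk3 (GRCm38.p6) are shown because no other member differed as much between the groups. Capitals mark ACGTG on either strand, the core that hypoxia-inducible factors read, which is CACGT when read from the opposite strand. The gene itself lies at chr13:55005985-55021385, minus strand, and gene positions here are those of GENCODE release M21 on GRCm38.
Hk3 (chr13:55021386-55021635, minus strand): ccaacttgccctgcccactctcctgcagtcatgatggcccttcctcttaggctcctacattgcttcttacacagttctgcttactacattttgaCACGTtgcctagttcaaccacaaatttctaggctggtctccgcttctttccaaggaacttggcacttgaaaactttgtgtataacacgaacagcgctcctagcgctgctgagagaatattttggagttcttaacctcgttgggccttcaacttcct
The stretch holds 1 ACGTG. It holds none of the other motifs searched on both strands, namely GAGGAAGT (a site of the myeloid factor PU.1), CACGTG (the E-box, which contains ACGTG) and AGGTCA (the core of nuclear receptor sites). Only exact matches that lie fully within the stretch were counted, so variants of these sites, such as other forms of a PU.1 site, would be missed.

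Hk1, the isozyme of most tissues, was measured at 12, 10.8 and 14.3 FPKM in the ND mice, 19.4, 19.2 and 22.3 FPKM in the HFD mice, 14.96, 17.05 and 18.4 FPKM in the CLE mice and 16.9, 15.01 and 16.99 FPKM in the LU mice (chr10:62268855-62379908, minus strand). Each HFD value was above each value of the other groups, and Hk1 rose in HFD against ND by 0.67 ± 0.11 (SE, limma adjusted p = 0.000524) on the log2 scale. It was not called in CLE against HFD, at -0.26 ± 0.11 (SE, limma adjusted p = 0.103), or in LU against HFD, at -0.30 ± 0.11 (SE, limma adjusted p = 0.0748). Hk2, the insulin-responsive isozyme of muscle and fat, had 17.3, 19.4 and 14.2 FPKM in the ND mice, 18.2, 23.4 and 20.9 FPKM in the HFD mice, 24.4, 21.01 and 23.7 FPKM in the CLE mice and 21.8, 16.2 and 20.2 FPKM in the LU mice. Its HFD values overlapped those of ND, CLE and LU, and its log2 fold change in HFD against ND was 0.29 ± 0.14 (SE, limma adjusted p = 0.107).

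Hk3 made up 4.24, 5.37 and 6.49% in the ND mice, 52.1, 43.9 and 45.7% in the HFD mice, 7.86, 11.5 and 23.6% in the CLE mice and 16.05, 14.9 and 25.7% in the LU mice of the summed FPKM of the 3 hexokinases. Hk2 was the most abundant of them in 2 of the 3 ND mice and in all CLE and LU mice, and Hk3 in all HFD mice. The summed level of the 3 was 30.6, 31.97 and 30.5 FPKM in the ND mice, 78.5, 75.9 and 79.6 FPKM in the HFD mice, 42.7, 43.02 and 55.1 FPKM in the CLE mice and 46.1, 36.7 and 50.1 FPKM in the LU mice. Isozyme shares are given as a description, with no test.

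**Figure D2:**
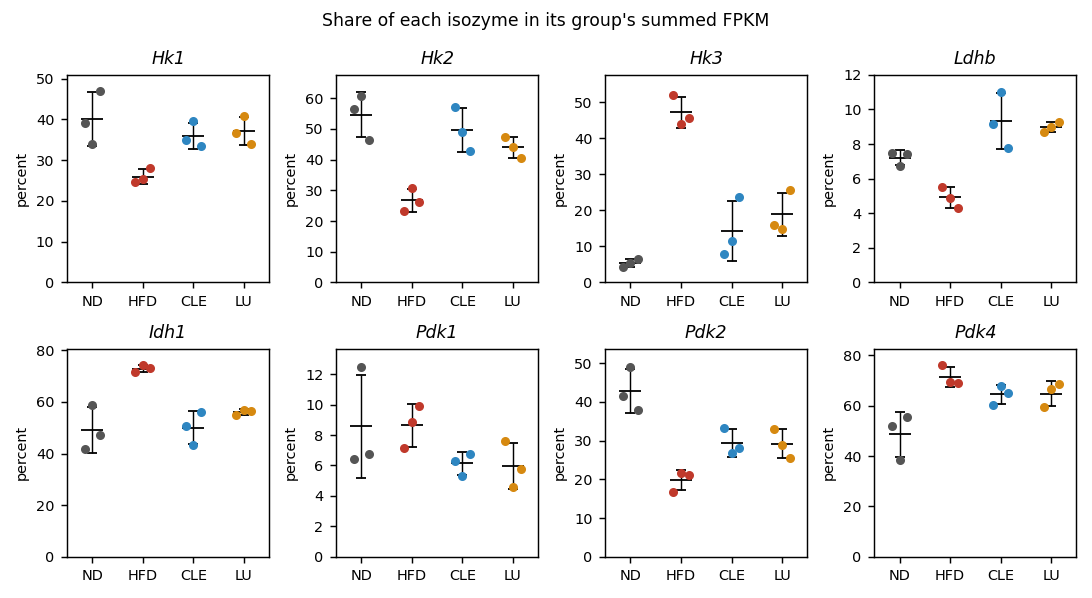
Share (percent, y axis) of single isozymes in the summed FPKM of their group, per mouse and diet group (x axis): Hk1, Hk2 and Hk3 of the 3 hexokinases, Ldhb of Ldha and Ldhb, Idh1 of Idh1 and Idh2, and Pdk1, Pdk2 and Pdk4 of these 3 kinases. Points are mice, horizontal marks the mean and bars the SD (n = 3). The HFD mice are highest for Hk3 (43.9% to 52.1%) and Idh1 (71.4% to 74.3%) and lowest for Ldhb (4.31% to 5.53%) and Pdk2 (16.8% to 21.7%).

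Phosphofructokinase commits the sugar to glycolysis, and Pfkfb3 makes fructose 2,6-bisphosphate, its strongest activator. Pfkfb3 was measured at 415, 394 and 423 FPKM in the ND mice, 279, 295 and 276 FPKM in the HFD mice, 515, 433 and 364 FPKM in the CLE mice and 464, 344 and 309 FPKM in the LU mice (chr2:11471433-11554077, minus strand). The HFD mice were below all others, and LU mouse 8 was the closest to them. In the CLE group Pfkfb3 rose compared with the HFD group, by 0.61 ± 0.15 (SE, limma adjusted p = 0.00901) on the log2 scale, and in LU against HFD the value was 0.37 ± 0.15 (SE, limma adjusted p = 0.0882). HFD against ND gave -0.53 ± 0.15 (SE, limma adjusted p = 0.0116), a fold of 1.45 and so under the limit of 1.5. Without CLE mouse 2 the CLE difference was 0.49 and without the fold needed for a call, and with the letter R as a covariate it was 0.56.

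The 3 phosphofructokinase subunits were not called in any of the 6 comparisons. Pfkp, the platelet type, had 73.1, 57.8 and 61.2 FPKM in the ND mice, 71.4, 78.5 and 74.1 FPKM in the HFD mice, 71.6, 67.5 and 69.5 FPKM in the CLE mice and 68.04, 70.7 and 79.6 FPKM in the LU mice. Pfkl, the liver type, had 56.3, 52.4 and 50.3 FPKM in the ND mice, 56.8, 67.6 and 62.4 FPKM in the HFD mice, 56.5, 44.6 and 59.5 FPKM in the CLE mice and 45.4, 54.3 and 62.1 FPKM in the LU mice. Its HFD values were above its ND values, with a log2 fold change of 0.23 ± 0.13 (SE, limma adjusted p = 0.178). Pfkm, the muscle type, was the lowest of them in every mouse, with 9.34, 8.90 and 9.61 FPKM in the ND mice, 9.86, 10.05 and 8.64 FPKM in the HFD mice, 7.88, 9.89 and 9.20 FPKM in the CLE mice and 9.09, 8.23 and 11.96 FPKM in the LU mice. Of the summed FPKM of the 3, Pfkp held 48.5% to 55.5%, Pfkl 36.5% to 44.0% and Pfkm 5.80% to 8.11%. The shares of the 4 groups overlapped, except that each LU share of Pfkp was above, and of Pfkl below, each HFD share. Gpi1, which turns glucose 6-phosphate into fructose 6-phosphate, differed between HFD and ND by 0.34 ± 0.07 (SE, limma adjusted p = 0.00208) on the log2 scale and between CLE and HFD by -0.32 ± 0.07 (SE, limma adjusted p = 0.00549), both under 1.5-fold, and was 110.4 ± 5.02 FPKM (SD, n = 3) in ND. Aldoa, the main aldolase, had 452, 702 and 558 FPKM in the ND mice, 592, 695 and 655 FPKM in the HFD mice, 565, 448 and 568 FPKM in the CLE mice and 518, 515 and 597 FPKM in the LU mice. Each CLE value was below each HFD value, and it was not called in any comparison (-0.30 ± 0.15 (SE, limma adjusted p = 0.152) in CLE against HFD). Aldoc had 0.172, 0.105 and 0.347 FPKM in the ND mice, 0.340, 0.468 and 0.270 FPKM in the HFD mice, 0.120, 0.0956 and 0.151 FPKM in the CLE mice and 0.146, 0.296 and 0.488 FPKM in the LU mice, at most 0.0818% of the summed FPKM of both in any mouse.

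In lower glycolysis, Pkm and Tpi1 were called higher in HFD than in ND. Pyruvate kinase, encoded by Pkm (chr9:59656368-59679375, plus strand), makes pyruvate and ATP in the last step. Its level was 141, 214 and 178 FPKM in the ND mice, 295, 299 and 302 FPKM in the HFD mice, 168, 149 and 192 FPKM in the CLE mice and 174, 162 and 204 FPKM in the LU mice. The HFD values lay close together and above all others, while the ND, CLE and LU values overlapped. Pkm rose in HFD against ND by 0.77 ± 0.15 (SE, limma adjusted p = 0.00125) on the log2 scale. It fell in CLE against HFD, at -0.82 ± 0.15 (SE, limma adjusted p = 0.00145), and in LU against HFD, at -0.73 ± 0.15 (SE, limma adjusted p = 0.00431). These calls held on leaving out any 1 of the 12 libraries. Of the 50-base words of the main Pkm transcript, 34.4% also occur in transcripts of other genes, so its level depends on how shared fragments were assigned.

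Pkm transcripts carry 1 of 2 mutually exclusive exons, which give the M1 and the M2 enzyme, of which M2 is the regulated form. The exons are shown because they are what separates the forms. Both are 167 bases long, and they differ at 64 positions (61.7% identical). Capitals mark the bases that differ, with the sequence from GENCODE release M21 on GRCm38.
Pkm M1-type exon (chr9:59675029-59675195, plus strand): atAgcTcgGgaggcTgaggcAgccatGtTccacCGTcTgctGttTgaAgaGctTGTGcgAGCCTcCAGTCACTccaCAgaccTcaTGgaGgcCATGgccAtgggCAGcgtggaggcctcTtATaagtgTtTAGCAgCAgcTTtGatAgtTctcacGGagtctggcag
Pkm M2-type exon (chr9:59675568-59675734, plus strand): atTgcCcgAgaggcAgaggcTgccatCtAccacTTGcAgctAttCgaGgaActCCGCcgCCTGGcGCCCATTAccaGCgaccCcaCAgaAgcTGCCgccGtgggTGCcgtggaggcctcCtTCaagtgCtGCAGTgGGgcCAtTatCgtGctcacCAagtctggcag
The deposited transcript with the M2-type exon had 83.3, 119.8 and 101 FPKM in the ND mice, 177, 176 and 174 FPKM in the HFD mice, 95.97, 81.8 and 107 FPKM in the CLE mice and 89.6, 97.8 and 116 FPKM in the LU mice. Every HFD mouse was above every other mouse in this form. The transcript with the M1-type exon had 22.1, 40.8 and 35.6 FPKM in the ND mice, 43.4, 49.2 and 48.5 FPKM in the HFD mice, 31.8, 29.1 and 35.7 FPKM in the CLE mice and 36.3, 25.5 and 32.5 FPKM in the LU mice. In this form the HFD values were also the highest, and the M1-type share of both was 20.9, 25.4 and 26.01% in the ND mice, 19.7, 21.8 and 21.8% in the HFD mice, 24.9, 26.2 and 25.1% in the CLE mice and 28.8, 20.7 and 21.9% in the LU mice. The shares of the 4 groups overlapped, except that each CLE share was above each HFD share. The split between transcripts is the authors' estimate and was given no test. Pkm was summed over 11 transcript entries, and these 2 do not hold all of its FPKM. The exon carried by the other entries was not examined, so the share covers these 2 alone.

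Triosephosphate isomerase, encoded by Tpi1 (chr6:124810586-124814296, minus strand), interconverts the triose phosphates. It was measured at 119, 257 and 217 FPKM in the ND mice, 262, 337 and 312 FPKM in the HFD mice, 214, 196 and 233 FPKM in the CLE mice and 217, 252 and 289 FPKM in the LU mice. ND mouse 2 was far below the other ND mice, and the highest ND value lay just under the lowest HFD value. Tpi1 rose in HFD against ND by 0.68 ± 0.23 (SE, limma adjusted p = 0.0289) on the log2 scale, and this call was lost without ND mouse 2 (log2 fold change 0.35, limma adjusted p = 0.0748), without HFD mouse 15 (0.60, adjusted p = 0.0905) and without HFD mouse 18 (0.66, adjusted p = 0.0724). In CLE against HFD its value was -0.50 ± 0.23 (SE, limma adjusted p = 0.123).

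Lactate dehydrogenase interconverts pyruvate and lactate, and its H subunit comes from Ldhb (chr6:142490249-142507957, minus strand). Ldhb was measured at 35.8, 46.4 and 42.4 FPKM in the ND mice, 26.7, 31.96 and 24.4 FPKM in the HFD mice, 44.1, 44.6 and 38.4 FPKM in the CLE mice and 39.5, 42.4 and 47.2 FPKM in the LU mice. Each HFD value was below each value of the other groups. Compared with the HFD group, Ldhb rose in CLE by 0.60 ± 0.13 (SE, limma adjusted p = 0.00351) and in LU by 0.62 ± 0.13 (SE, limma adjusted p = 0.00426) on the log2 scale. In HFD against ND it was -0.57 ± 0.13 (SE, limma adjusted p = 0.00283), a fold of 1.49 and therefore not called. Both calls were near the fold limit. The call for CLE was lost without HFD mouse 12 or 18 or CLE mouse 2 or 4 (log2 fold changes 0.52 to 0.58), and with the letter R as a covariate (0.58) or without the 4 libraries that carry it (0.56). The call for LU was lost without HFD mouse 18 (0.54) or LU mouse 8 (0.56), and the adjusted p stayed under 0.05 in each case.

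Ldha, the muscle subunit, was more abundant, at 444, 645 and 528 FPKM in the ND mice, 455, 620.1 and 542 FPKM in the HFD mice, 438, 361 and 456 FPKM in the CLE mice and 414, 428 and 460.0 FPKM in the LU mice. Its groups overlapped throughout, and its log2 fold change was 0.01 in HFD against ND and -0.36 ± 0.15 (SE, limma adjusted p = 0.0849) in CLE against HFD. Ldhb made up 7.47, 6.72 and 7.43% in the ND mice, 5.53, 4.90 and 4.30% in the HFD mice, 9.16, 11 and 7.76% in the CLE mice and 8.70, 9 and 9.30% in the LU mice of the summed FPKM of both. The HFD shares were the lowest and the ND shares were below all CLE and LU shares. Gapdh, which makes the first NADH of glycolysis and is widely used as a reference gene, was the most abundant member, with a mean of 817 FPKM over the 12 libraries. It ranged from 715 to 1215 FPKM, ND mouse 3 being the highest, and was not called in any comparison, and its log2 fold change was -0.26 ± 0.15 (SE, limma adjusted p = 0.172) in HFD against ND. Pgk1, Pgam1 and Eno1, the kinase, mutase and enolase between Gapdh and Pkm, were not called either, with 0.28, 0.25 and 0.35 for HFD against ND (limma adjusted p = 0.072, 0.117 and 0.0812). Shared 50-base words made up 82.5% of the main Gapdh transcript, 72.2% of Eno1, 68.0% of Pgk1 and 41.5% of Pgam1, so these levels are uncertain.

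**Figure D3:**
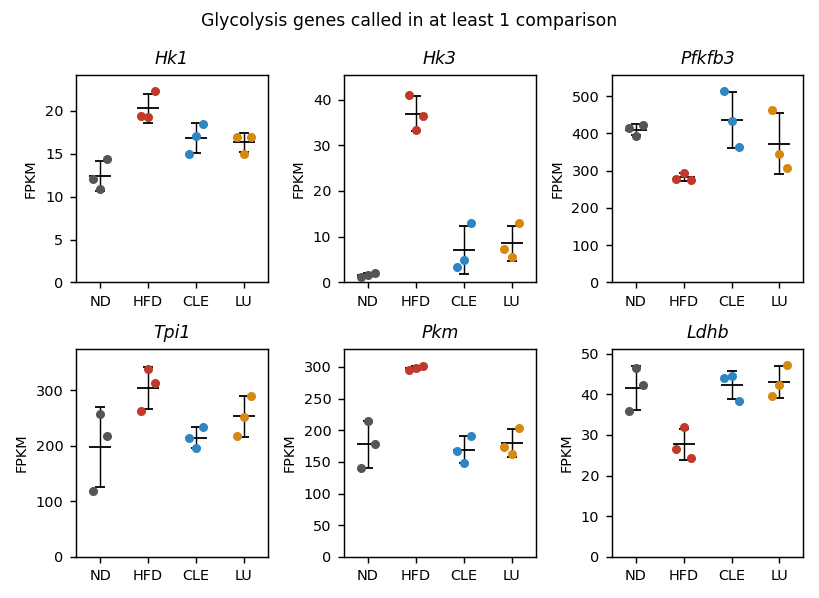
FPKM (y axis, from 0) of the 6 glycolysis and lactate genes called in at least 1 comparison, per mouse and diet group (x axis). Points are mice, horizontal marks the mean and bars the SD (n = 3). For Hk1, Hk3, Tpi1 and Pkm the HFD mean is the highest of the 4 groups, and for Pfkfb3 and Ldhb it is the lowest.

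At the entry of pyruvate into the mitochondrion, 3 of the 6 genes fell in HFD against ND and none rose, where 10.8% of all tested genes were called lower and 14.9% higher. Pdk2 encodes a kinase that switches the pyruvate dehydrogenase complex off (chr11:95026258-95041354, minus strand). It was measured at 148, 85.7 and 97.4 FPKM in the ND mice, 43.1, 41.5 and 38.02 FPKM in the HFD mice, 92.9, 90.4 and 72.9 FPKM in the CLE mice and 66.2, 80.5 and 72.9 FPKM in the LU mice. All HFD values were below all others, and ND mouse 2 was the highest. Pdk2 fell in HFD against ND, with a log2 fold change of -1.37 ± 0.18 (SE, limma adjusted p = 6.92e-05). Compared with HFD it rose by 1.04 ± 0.18 (SE, limma adjusted p = 0.001) in CLE and by 0.82 ± 0.18 (SE, limma adjusted p = 0.00581) in LU. These calls held on leaving out any 1 library. The 250 bases before its RefSeq start are shown for the E-box that they hold, CACGTG in capitals, which carries ACGTG on both strands.
Pdk2 (chr11:95041372-95041621, minus strand): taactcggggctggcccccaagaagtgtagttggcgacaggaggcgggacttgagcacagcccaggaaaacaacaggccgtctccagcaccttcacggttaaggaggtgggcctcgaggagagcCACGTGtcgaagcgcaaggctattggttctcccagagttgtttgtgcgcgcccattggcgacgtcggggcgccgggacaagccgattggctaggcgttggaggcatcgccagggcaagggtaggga

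Pdk4, the kinase that fasting raises, varied widely between the mice of a group, at 186, 67.3 and 143 FPKM in the ND mice, 195, 133 and 125 FPKM in the HFD mice, 168, 229.7 and 169 FPKM in the CLE mice and 119, 185 and 196 FPKM in the LU mice. ND mouse 3 had the lowest value of all, the groups overlapped, and the log2 fold change in HFD against ND was 0.28 ± 0.33 (SE, limma adjusted p = 0.498). Pdk1 was measured at 23.04, 21.8 and 17.4 FPKM in the ND mice, 18.3, 16.96 and 17.9 FPKM in the HFD mice, 17.5, 18.1 and 17.6 FPKM in the CLE mice and 15.2, 12.8 and 16.5 FPKM in the LU mice and was lower in every LU than in every HFD mouse, without being called (-0.25 ± 0.11 (SE, limma adjusted p = 0.127)). In the summed FPKM of these 3 kinases Pdk2 held 41.5, 49.02 and 37.9% in the ND mice, 16.8, 21.7 and 21.01% in the HFD mice, 33.4, 26.7 and 28.03% in the CLE mice and 33, 28.95 and 25.5% in the LU mice. The HFD mice had the lowest Pdk2 shares and the ND mice the highest. Pdk4 held 52.1, 38.5 and 55.4% in the ND mice, 76.1, 69.5 and 69.1% in the HFD mice, 60.3, 67.9 and 65.2% in the CLE mice and 59.4, 66.5 and 68.7% in the LU mice, so that it was the larger of the pair in every mouse but ND mouse 3.

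Pdha1 encodes the catalytic subunit of the pyruvate dehydrogenase complex (chrX:160122209-160138413, minus strand). Its level was 158, 199 and 157 FPKM in the ND mice, 89.3, 91.5 and 88.2 FPKM in the HFD mice, 143, 110.2 and 102 FPKM in the CLE mice and 113, 103 and 94.1 FPKM in the LU mice. The HFD values were the lowest and lay close together, and the ND values were the highest. Pdha1 fell in HFD against ND, at -0.92 ± 0.13 (SE, limma adjusted p = 0.000181) on the log2 scale. It was also lower in LU than in ND, at -0.72 ± 0.13 (SE, limma adjusted p = 0.00635), while in CLE against ND the difference of -0.53 ± 0.13 (SE, limma adjusted p = 0.0436) and in CLE against HFD that of 0.38 ± 0.13 (SE, limma adjusted p = 0.0462) stayed under 1.5-fold. The LU call against ND was lost without the 4 libraries of letter R, which keeps 1 ND library (log2 fold change -0.68, limma adjusted p = 0.0869). Pdhb, its partner subunit, differed between HFD and ND by -0.45 ± 0.11 (SE, limma adjusted p = 0.00546), also under 1.5-fold.

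Pyruvate carboxylase, encoded by Pcx (chr19:4510472-4621752, plus strand), had 445, 522 and 393 FPKM in the ND mice, 275, 287 and 257 FPKM in the HFD mice, 444, 320.5 and 328 FPKM in the CLE mice and 319, 316 and 286 FPKM in the LU mice. Each HFD value was below each ND and CLE value, and LU mouse 8 fell within the HFD range. Pcx fell in HFD against ND, at -0.72 ± 0.14 (SE, limma adjusted p = 0.00107) on the log2 scale. In CLE against HFD the value was 0.40 ± 0.14 (SE, limma adjusted p = 0.041), under 1.5-fold, and in LU against HFD 0.17 ± 0.14 (SE, limma adjusted p = 0.39). Of the pair of main deposited Pcx transcripts, the one starting upstream had 360.4, 355 and 304 FPKM in the ND mice, 229, 234 and 221 FPKM in the HFD mice, 349.9, 271 and 275 FPKM in the CLE mice and 262, 250.3 and 248 FPKM in the LU mice. The one starting downstream, at position 4594346 of the same chromosome, had 81.5, 163 and 86.3 FPKM in the ND mice, 42.3, 51.8 and 34.9 FPKM in the HFD mice, 90.8, 45.5 and 50.5 FPKM in the CLE mice and 54.9, 63.5 and 37.1 FPKM in the LU mice. The downstream form made up 18.4, 31.5 and 22.1% in the ND mice, 15.6, 18.1 and 13.6% in the HFD mice, 20.6, 14.4 and 15.5% in the CLE mice and 17.3, 20.2 and 13.04% in the LU mice of both, with the highest share in ND mouse 3. Taken by its most abundant transcript alone, the gene differed between HFD and ND by -0.57, under the fold limit.

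The pentose phosphate pathway makes NADPH in its oxidative branch and rearranges sugars in its other branch. The first enzyme, glucose 6-phosphate dehydrogenase, is encoded by G6pdx (chrX:74409483-74429194, minus strand), with 89.8, 119 and 110.0 FPKM in the ND mice, 172, 172 and 174 FPKM in the HFD mice, 155, 156 and 147 FPKM in the CLE mice and 138, 134 and 162 FPKM in the LU mice. Each HFD value was above all others and each ND value below all others. G6pdx rose in HFD against ND by 0.71 ± 0.11 (SE, limma adjusted p = 0.000244) on the log2 scale. In CLE and LU it did not differ from HFD by enough for a call, at -0.18 ± 0.11 (SE, limma adjusted p = 0.223) and -0.26 ± 0.11 (SE, limma adjusted p = 0.0941). Against ND it was 0.53 ± 0.11 (SE, limma adjusted p = 0.0213) in CLE and 0.45 ± 0.11 (SE, limma adjusted p = 0.0202) in LU, under 1.5-fold. Pgd, the other dehydrogenase of this branch, differed between HFD and ND by 0.53 ± 0.15 (SE, limma adjusted p = 0.011), a fold of 1.44.

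Transketolase, encoded by Tkt (chr14:30548359-30574720, plus strand), moves 2-carbon units between sugars, and it differed from ND in all 3 groups on the high-fat diet. Its level was 142, 261 and 173 FPKM in the ND mice, 89.3, 103 and 101 FPKM in the HFD mice, 114, 87 and 85.2 FPKM in the CLE mice and 86.9, 96.04 and 92.1 FPKM in the LU mice. The ND mice were above all others, ND mouse 3 being far the highest, and the HFD, CLE and LU values overlapped. Tkt fell in HFD against ND, at -0.92 ± 0.19 (SE, limma adjusted p = 0.00173), in CLE against ND, at -0.97 ± 0.19 (SE, limma adjusted p = 0.0183), and in LU against ND, at -1.01 ± 0.19 (SE, limma adjusted p = 0.00597). In CLE and LU against HFD the log2 fold changes were -0.05 and -0.09, with 95% intervals from -0.46 to 0.36 and from -0.50 to 0.32. Without the 4 libraries of letter R, which include ND mouse 3 and leave 1 ND library, the HFD difference was -0.54 (limma adjusted p = 0.0469), the CLE difference -0.53 (0.178) and the LU difference -0.59 (0.104). The CLE call was also lost without CLE mouse 4 (-0.91, limma adjusted p = 0.0569) or 11 (-0.90, 0.0659). Taldo1 and Rpia, transaldolase and ribose 5-phosphate isomerase, were not called, at -0.31 and -0.09 in HFD against ND. None of these 5 genes was called in CLE or in LU against HFD, where 0 and 1 of them had an unadjusted limma p under 0.05. Of all tested genes, 6.33% were called higher and 10.1% lower in CLE against HFD, and 4.81% and 7.64% in LU against HFD. An unadjusted limma p under 0.05 was found for 43.9% of all tested genes in CLE and 39.2% in LU against HFD. With 5 genes, such counts say little about the pathway.

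Among the 9 genes grouped with the citrate cycle, the cytosolic isozyme Idh1 was called and the others were not. Idh1 encodes the cytosolic isocitrate dehydrogenase, which makes NADPH outside the mitochondrion (chr1:65158616-65186500, minus strand). It was measured at 56.7, 99.6 and 71.3 FPKM in the ND mice, 135, 155 and 147 FPKM in the HFD mice, 82.1, 61.5 and 88.7 FPKM in the CLE mice and 96.5, 90.8 and 98.7 FPKM in the LU mice. The HFD mice were above all others, and the LU mice were above each CLE mouse. Idh1 rose in HFD against ND by 0.97 ± 0.18 (SE, limma adjusted p = 0.00104) on the log2 scale. It fell in CLE against HFD, at -0.92 ± 0.18 (SE, limma adjusted p = 0.00264), and in LU against HFD, at -0.61 ± 0.18 (SE, limma adjusted p = 0.0294). The LU call was lost without HFD mouse 12, 15 or 18 or LU mouse 2, 3 or 8, with log2 fold changes from -0.66 to -0.56 and limma adjusted p from 0.0535 to 0.0882. Of the 250 bases before its RefSeq start, the 211 that lie in no annotated exon are shown for comparison with Hk3 and Pdk2. They hold none of the 4 motifs, and the annotated gene reaches further upstream than this stretch.
Idh1 (chr1:65179182-65179392, minus strand): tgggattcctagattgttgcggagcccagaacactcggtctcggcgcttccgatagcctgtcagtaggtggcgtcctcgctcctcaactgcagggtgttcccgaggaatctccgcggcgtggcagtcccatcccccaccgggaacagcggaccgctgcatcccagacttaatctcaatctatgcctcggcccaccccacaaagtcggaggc

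Idh2, the mitochondrial NADP-linked enzyme, went the other way but by less than 1.5-fold, at 79.6, 69.3 and 80.2 FPKM in the ND mice, 54.1, 53.6 and 54.3 FPKM in the HFD mice, 80.03, 80.8 and 69.2 FPKM in the CLE mice and 78.9, 68.5 and 75.9 FPKM in the LU mice. Each HFD value was below each value of the other groups. Its log2 fold change was -0.49 ± 0.09 (SE, limma adjusted p = 0.00109) in HFD against ND, 0.49 ± 0.09 (SE, limma adjusted p = 0.00186) in CLE against HFD and 0.45 ± 0.09 (SE, limma adjusted p = 0.00459) in LU against HFD. Idh1 made up 41.6, 58.95 and 47.1% in the ND mice, 71.4, 74.3 and 73.05% in the HFD mice, 50.6, 43.2 and 56.2% in the CLE mice and 55.01, 57 and 56.5% in the LU mice of the summed FPKM of both. The HFD shares were the highest, and the ND, CLE and LU shares overlapped.

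Of the other citrate cycle genes, 4 were lower in HFD than in ND at an adjusted p under 0.05 without reaching 1.5-fold, where 24.8% of all tested genes were lower at that adjusted p whatever their fold. They were Cs, citrate synthase (-0.34 ± 0.12 (SE, limma adjusted p = 0.0358)), Suclg1, a subunit of succinyl-CoA ligase (-0.30 ± 0.08 (SE, limma adjusted p = 0.00895)), Fh1, fumarase (-0.53 ± 0.11 (SE, limma adjusted p = 0.00204)), and Mdh2, the mitochondrial malate dehydrogenase (-0.47 ± 0.09 (SE, limma adjusted p = 0.00157)). Fh1 and Mdh2 were higher in CLE than in HFD, at 0.35 ± 0.11 (SE, limma adjusted p = 0.0286) and 0.28 ± 0.09 (SE, limma adjusted p = 0.0385), again under 1.5-fold. In LU against HFD they were 0.30 ± 0.11 (SE, limma adjusted p = 0.0647) and 0.24 ± 0.09 (SE, limma adjusted p = 0.0749). Mdh1, the cytosolic form, was -0.28 ± 0.11 (SE, limma adjusted p = 0.0633) in HFD against ND. Idh3a and Ogdh, which encode subunits of the NAD-linked isocitrate and the 2-oxoglutarate dehydrogenase, differed little between groups: their log2 fold changes in HFD against ND were -0.02 and 0.02, with 95% intervals from -0.24 to 0.19 and from -0.19 to 0.23.

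**Figure D4:**
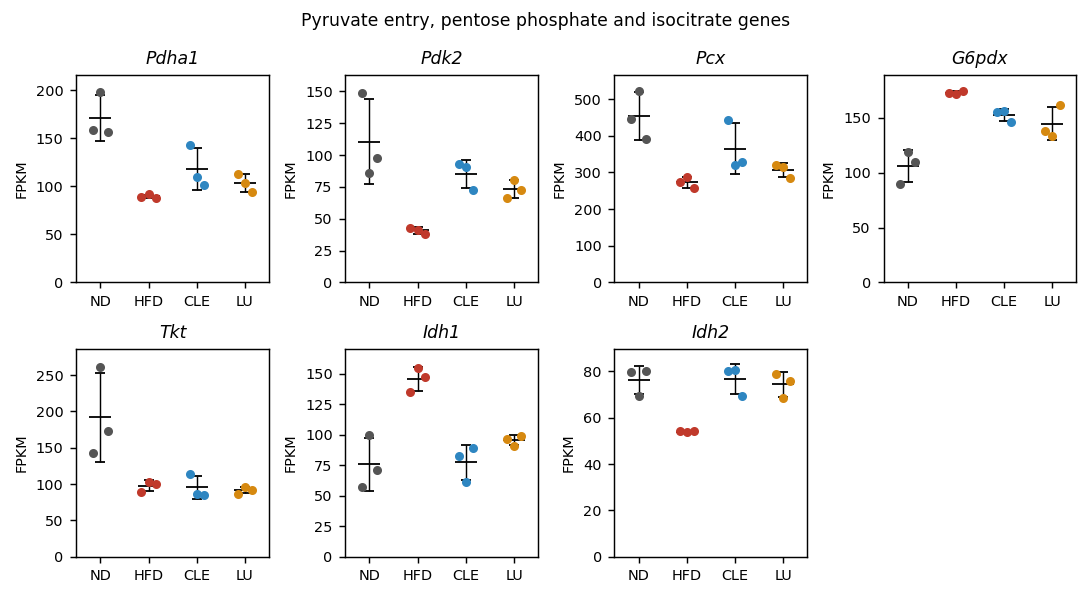
FPKM (y axis, from 0) of Pdha1, Pdk2, Pcx, G6pdx, Tkt, Idh1 and Idh2 per mouse and diet group (x axis). Points are mice, horizontal marks the mean and bars the SD (n = 3). The HFD mean is the lowest for Pdha1, Pdk2, Pcx and Idh2 and the highest for G6pdx and Idh1, and for Tkt the HFD, CLE and LU mice lie together below the ND mice.

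CLE and LU were compared directly over the 37 members. None was called, beside 0% of all tested genes called higher and 0.00783% lower. Among the members 1, Pdk1, had an unadjusted limma p under 0.05, beside 5.26% of all tested genes, and its adjusted p was 0.891. The members' log2 fold changes ranged from -0.35 for Hk3 to 0.25 for Pdk1. For 32 of the 37, the 95% interval lay within a 1.5-fold change in either direction. For Hk3 (95% interval -1.16 to 0.45), Tpi1 (-0.74 to 0.28), Idh1 (-0.71 to 0.09), Pdk2 (-0.17 to 0.60) and Pdk4 (-0.53 to 0.92) it reached past that limit, so that larger differences between the supplements could not be told from none. Pfkfb3, called for CLE and not for LU against HFD, differed between CLE and LU by 0.24 ± 0.15 (SE, limma adjusted p = 0.892) on the log2 scale, with overlapping mice.

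**Figure D5:**
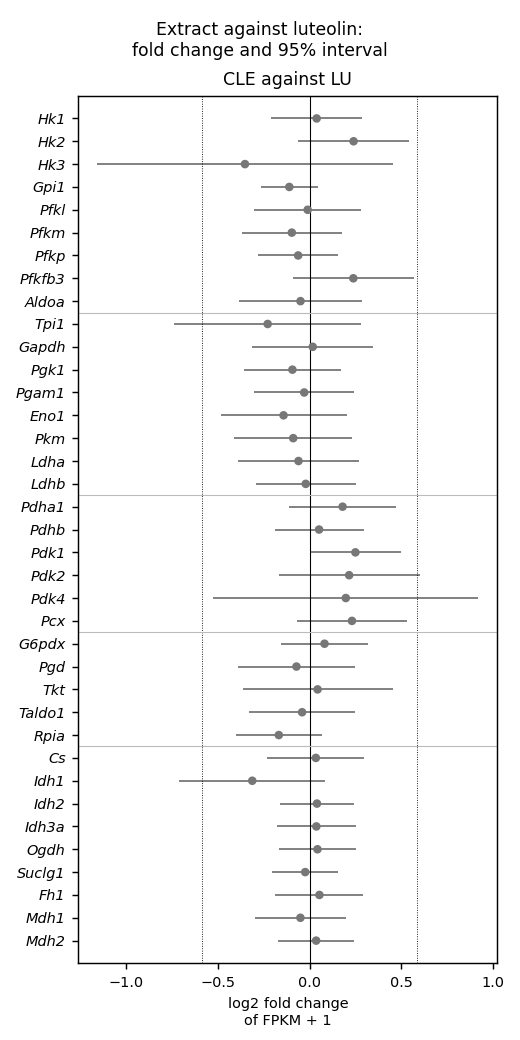
Log2 fold change of FPKM + 1 in CLE against LU (x axis) for the 37 tested genes (y axis, in pathway order). Points are limma estimates, bars 95% intervals and dotted lines a fold change of 1.5. No gene is called, and the interval of Hk3 is the widest, from -1.16 to 0.45.

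Set against ND, the CLE group had 2 members called, Hk3 higher and Tkt lower, beside 2.06% of all tested genes called higher and 0.853% lower. The LU group had 3, Hk3 higher and Pdha1 and Tkt lower, beside 4.97% and 1.62%. Pdk1 and Pcx were lower in LU than in ND at an adjusted p under 0.05 and a fold under 1.5, at -0.46 ± 0.11 (SE, limma adjusted p = 0.0225) and -0.55 ± 0.14 (SE, limma adjusted p = 0.0218). Pkm and Ldhb, called in both supplemented groups against HFD, had log2 fold changes of -0.06 and 0.03 in CLE against ND and of 0.03 and 0.05 in LU against ND. The 95% intervals for CLE were -0.38 to 0.27 for Pkm and -0.24 to 0.31 for Ldhb. The count for CLE changed with the libraries in the fit. It was 0 without CLE mouse 4 or CLE mouse 11. Without ND mouse 2 or 4, HFD mouse 12, 15 or 18, or LU mouse 2 it was 1, and it was 3 without CLE mouse 2. Over all tested genes, 263 were called higher and 109 lower with all libraries. These counts were 158 and 70 without CLE mouse 4, 91 and 36 without CLE mouse 11, and 368 and 130 without CLE mouse 2. With 3 mice per group, an exact permutation test of a single gene cannot give a two-sided p under 0.1.

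Another 57 genes of the same pathways, among them transporters, further isozymes and regulators, were counted for comparison, and 51 of them were tested. In HFD against ND, 3 were called higher and 11 lower, beside 14.9% and 10.8% of all tested genes. In CLE against HFD it was 4 higher and 3 lower, beside 6.33% and 10.1% of all genes, and in LU against HFD also 4 higher and 3 lower, beside 4.81% and 7.64%. Against ND, 0 were called higher and 1 lower in CLE, beside 2.06% and 0.853% of all genes, and 0 higher and 3 lower in LU, beside 4.97% and 1.62%. In CLE against LU none was called (1 had an unadjusted limma p under 0.05, beside 5.26% of all tested genes). Pck1, the carboxykinase that feeds glyceroneogenesis in fat, had the largest fold change, with 2575, 2199 and 2211 FPKM in the ND mice, 483, 429 and 442 FPKM in the HFD mice, 2123, 2010 and 1217 FPKM in the CLE mice and 1463, 1448 and 1178 FPKM in the LU mice. All HFD values were below all others, and Pck1 was -2.36 ± 0.18 (SE, limma adjusted p = 1.92e-06) in HFD against ND, 1.94 ± 0.18 (SE, limma adjusted p = 3.18e-05) in CLE against HFD and 1.59 ± 0.18 (SE, limma adjusted p = 0.000214) in LU against HFD. Its level in LU was also below ND, at -0.78 ± 0.18 (SE, limma adjusted p = 0.0178).

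Among the transporters, Slc2a3, a glucose carrier, fell in HFD against ND (-1.39 ± 0.27 (SE, limma adjusted p = 0.00124)) and rose in CLE (1.45 ± 0.27 (SE, limma adjusted p = 0.00172)) and LU (1.09 ± 0.27 (SE, limma adjusted p = 0.0118)) compared with HFD. The lactate carriers moved in opposite directions in HFD against ND: Slc16a3, the exporter of glycolytic cells, rose (1.10 ± 0.12 (SE, limma adjusted p = 1.63e-05)) and Slc16a1 fell (-0.81 ± 0.23 (SE, limma adjusted p = 0.0109)). Slc16a3 fell in CLE (-0.88) and LU (-0.60) compared with HFD. It was low throughout, with means of 0.729 FPKM in ND, 2.71 in HFD, 1.01 in CLE and 1.46 in LU. The added 1 FPKM therefore weighs on its log2 values, as for Hk3. Slc16a1 had 17.7, 37.7 and 22.2 FPKM in the LU mice and 14.99, 15.8 and 14.5 FPKM in the HFD mice. LU mouse 3 was far above the other LU mice, and the difference of 0.67 ± 0.23 (SE, limma adjusted p = 0.0476) passed the call rule by little: without that mouse it was 0.37 (limma adjusted p = 0.15), and the call was kept only on leaving out CLE mouse 4 or 11 or LU mouse 2. Mpc1 and Mpc2, the subunits of the mitochondrial pyruvate carrier, both fell in HFD against ND (-1.24 ± 0.18 (SE, limma adjusted p = 0.000195) and -0.78 ± 0.19 (SE, limma adjusted p = 0.0052)). Mpc1 was also called lower than in ND in CLE (-0.75 ± 0.18 (SE, limma adjusted p = 0.0402)) and LU (-0.72 ± 0.18 (SE, limma adjusted p = 0.0254)).

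Of the further isozymes, Eno2 and Pfkfb4 rose in HFD against ND, at 1.25 ± 0.18 (SE, limma adjusted p = 0.000157) and 1.21 ± 0.23 (SE, limma adjusted p = 0.00103), and fell compared with HFD in CLE (-1.11 and -0.93) and in LU (-1.18 and -0.67). Eno3, the muscle enolase, fell in HFD against ND (-1.06 ± 0.16 (SE, limma adjusted p = 0.000183)). So did Idh3b and Sdhb, subunits of the NAD-linked isocitrate and of succinate dehydrogenase (-0.82 ± 0.10 (SE, limma adjusted p = 6.17e-05) and -0.81 ± 0.12 (SE, limma adjusted p = 0.00022)). Txnip, which lowers glucose uptake and responds to glucose, fell in HFD against ND (-1.16 ± 0.13 (SE, limma adjusted p = 2.22e-05)) and rose compared with HFD in CLE (0.73) and in LU (0.74).

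Several calls of these further genes lay near the limits and were lost on leaving out 1 library. Where that library belonged to neither group compared, the fold change stayed the same and only the shared estimate of the spread changed. In LU against HFD, Pfkfb4 kept its call only on leaving out ND mouse 2 or 3 or LU mouse 8 (elsewhere -0.73 to -0.41, limma adjusted p from 0.0534 to 0.18), and Slc16a3 lost it without HFD mouse 15 (-0.56) or LU mouse 3 (-0.47). Against ND, Mpc1 kept its call in CLE only on leaving out ND mouse 2, CLE mouse 2 or LU mouse 3 or 8 (elsewhere -0.79 to -0.53, limma adjusted p from 0.0525 to 0.113). In LU it lost the call without ND mouse 3 or LU mouse 2 or 8 (-0.69 to -0.49). Without the 4 libraries of letter R, Mpc1 was -0.32 in CLE and -0.28 in LU against ND (limma adjusted p = 0.377 and 0.393), Slc16a1 was -0.78 in HFD against ND (0.0521), Pfkfb4 -0.67 in LU against HFD (0.133) and Pck1 -0.98 in LU against ND (0.101), none of them called. Mpc2 in HFD against ND was -0.57 without ND mouse 3 and -0.47 without the libraries of letter R, and Pck1 in LU against ND lost its call without ND mouse 2 (-0.70) or LU mouse 8 (-0.67). By its most abundant transcript alone, Slc2a3 differed between LU and HFD by 0.10 (limma adjusted p = 0.852).

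In whole tissue, fewer cells of a type and less RNA per cell cannot be told apart, and markers of several cell types also differed between these groups. Of the 37 tested members, 27 were not called in HFD against ND. Of 12 macrophage markers, 11 were called higher in HFD than in ND, and 11 lower in both CLE and LU than in HFD. Their summed FPKM was 354 to 534 in ND, 2410 to 2768 in HFD, 619 to 905 in CLE and 964 to 1095 in LU, and none of the 12 stayed under 1 FPKM. Lyz2 alone averaged 1667 FPKM in HFD and so dominated this sum. Hk3, Pkm, Idh1 and Slc16a3 had their highest levels in the 3 HFD mice, as this sum had. Hk1 and G6pdx were also highest in the 3 HFD mice, with means of 20.3 and 173 FPKM, but stayed closer to HFD in the supplemented groups. Hk1 averaged 16.8 FPKM in CLE and 16.3 in LU, and G6pdx 153 and 145 FPKM. For Tpi1, also called higher in HFD than in ND, the HFD and LU values overlapped. Of 12 adipocyte markers, 6 were called lower in HFD than in ND and 1, Lep, higher. Their summed FPKM was 31491 to 33796 in ND, 20237 to 22763 in HFD, 28152 to 31203 in CLE and 26458 to 31975 in LU. Fabp4 alone averaged 19732 FPKM in ND and 10999 FPKM in HFD and so dominated this sum, while Lpl averaged 3800 and 3907 FPKM. Pdk2, Pdha1, Pcx and Ldhb had their lowest mean level in the same group as this sum. Tkt, also called lower in HFD than in ND, had its lowest mean in LU (91.7 FPKM, beside 97.8 in HFD). The part that cell composition had in the members' differences was not tested.

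Other marker lists moved as well. Of 8 endothelial markers, 2 were called lower in HFD than in ND, 4 higher in CLE and 5 higher in LU than in HFD (summed FPKM 355 to 563 in ND, 251 to 403 in HFD, 425 to 606 in CLE and 471 to 546 in LU). The 5 blood markers summed to 571 to 2290 FPKM in ND, 188 to 308 in HFD, 273 to 1172 in CLE and 447 to 741 in LU. All 5 were called lower in HFD than in ND. Of 5 mesothelial markers, 4 were called lower in HFD than in ND (9.43 to 53.3 FPKM in ND, 2.29 to 7.01 in HFD, 6.90 to 11.9 in CLE and 7.48 to 15.6 in LU). Of 6 progenitor markers, 1 was called lower in HFD than in ND and 1 higher in LU than in HFD (754 to 938 FPKM in ND, 642 to 770.0 in HFD, 561 to 809 in CLE and 624 to 823 in LU). Of 2 tested T cell markers of 6, 1 was called higher in HFD than in ND (3.58 to 4.40 FPKM in ND, 4.99 to 8.94 in HFD, 3.93 to 7.48 in CLE and 4.26 to 11.2 in LU), and Cd8a stayed under 1 FPKM. Of 5 tested liver markers of 6, 2 were called lower in HFD than in ND and 2 higher in CLE than in HFD (13.9 to 34.2 FPKM in ND, 1.83 to 11.2 in HFD, 7.20 to 27.6 in CLE and 5.02 to 6.35 in LU). The 7 skeletal muscle markers in the table were all too low to be tested and summed to at most 1.87 FPKM in ND, 8.65 in HFD, 20.4 in CLE and 1.56 in LU, and the 6 epididymis markers, 1 of them tested and not called, to at most 5.46 FPKM in ND, 0.364 in HFD, 0.332 in CLE and 3.31 in LU. The part of these lists in the members' differences was not tested.

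A promoter window of RefSeq on GRCm38.p6 was found for 37 of the 38 members, and the window nearest the start of the most abundant annotated transcript was searched over its 250 bases before the start, on both strands. ACGTG occurred in 13 of the 37 members (35.1%) and in 16.6% of all 32851 windows of the table, which holds several windows for some genes. CACGTG occurred in 4 members (10.8%, against 6.02% of all windows), namely Pfkfb3, Ldha, Pdk2 and Pcx. AGGTCA occurred in 4 members (10.8%, against 14% of all windows), namely Aldoa, Eno1, Ldhb and Fh1, and GAGGAAGT in none (2.44% of all windows). A match is an exact run of letters and was not tested as a binding site, and variants of these sites were not searched.

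Annotated neighbours overlap some of the called members on their exons: Hk1os lies opposite Hk1, Unc5a opposite Hk3, Spsb2 opposite Tpi1, Map3k15 opposite Pdha1 and Ikbkg opposite G6pdx, and Gm49759 and Mir3076 lie on the strand of Pkm and Tkt. The kit named by the study is not stated to keep the strand, so fragments of such neighbours cannot be told apart there. The main transcripts of Hk1, Hk2, Hk3, Pdk2, Pcx, Tkt, Idh1 and Idh2 shared no 50-base word with a transcript of another gene, while Ldhb shared 27.0%, G6pdx 7.65% and Tpi1 7.51%.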

How the data were processed

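Whole eWAT of 12 mice (4 diet groups of 3) was analysed by mRNA-Seq. The authors prepared paired-end libraries with a TruSeq RNA kit and quantified transcripts with Cuffdiff; the submitters' processing notes name CASAVA 1.8.2, TopHat2 2.0.12, Bowtie2 2.2.3 and Cufflinks 2.2.1. They deposited FPKM values per library for 152210 known or assembled transcripts. The genome build is not given in the sources used here; identifiers were matched to GENCODE M21 (GRCm38), where 87.6% of the 77000 known transcripts found had the same start and end. Of the values above 0, 33.1% were under 1e-06 FPKM, so no read counts could be recovered and the depth is unknown. Columns that hold the authors' own calls between groups, and 3 of the 15 FPKM columns, which match no sample, were not used. The column headed MD4 was taken as ND mouse 4 by inference from its number, its letter R and its place.

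Known transcripts of a gene, and assembled ones of its structure or sharing its junctions, were summed; 9 transcript entries of the members were left out for their class. Genes at 1 FPKM or more in 3 or more libraries entered limma 3.58.1 (R 4.3.3) on log2(FPKM + 1), in 1 fit of all 12 libraries without a covariate, with Benjamini-Hochberg adjustment per comparison; calls needed a fold change over 1.5 and an adjusted p under 0.05. On simulated data of HFD against ND, the test recovered 182 of 200 genes changed by a log2 of 1. Of 200 genes changed by a log2 of 2 it recovered 197. The changed genes were drawn from those with a mean log2(FPKM + 1) over 2, with normal noise independent between genes. Lower genes and changes near 1.5-fold were not simulated. The labels number the mice, but do not say whether same-numbered mice of different groups are paired. For the further pathway genes the same alternatives were added after seeing the data. Alternatives changed the pseudocount, filter, scaling, samples, covariate, call rule and gene value. Members called in any comparison, and those in isozyme shares, are given in every mouse, with up to 12 other pathway genes by size of change. The members, the lists and the motifs were chosen with earlier results of these data known. A further marker gene is not reported here. The p-values measure the spread between the 3 mice that were sequenced of each group. Tables and plots were made with numpy 2.4.6, pandas 2.3.3 and matplotlib 3.10.9 under Python 3.11.15.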

Additional observations from a re-analysis of the deposited data

How the results depend on the processing

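For the 26 pairs of a member and a comparison that were called, 634 values were recomputed under 26 settings: 583 kept direction and call, 51 kept the direction and lost the call, and 0 reversed. The lost calls were those of Hk3 in CLE against ND (16), Idh1 in LU against HFD (7), Ldhb in CLE against HFD (6), Tkt in CLE against ND (6), Tpi1 in HFD against ND (5), Ldhb in LU against HFD, Pfkfb3 in CLE against HFD, Pdha1 in LU against ND and Tkt in LU against ND (2 each), and Hk3 in LU against ND and Pcx and Tkt in HFD against ND (1 each). The number of members called in HFD against ND (10) was 20 by the adjusted p alone and 9 to 11 on leaving out 1 library; in CLE against HFD (6) it was 12 and 4 to 6; in LU against HFD (5) it was 3 to 5 on leaving out 1 library, with 3 without HFD mouse 18 or LU mouse 8. In LU against ND (3) it was 6 by the adjusted p alone and 3 to 4 on leaving out 1 library. In CLE against ND (2) it was 1 without a filter, 0 with only the groups compared in the fit and 1 with the letter R as a covariate. It was 4 by the adjusted p alone, 1 by the highest transcript, and 0 to 3 on leaving out 1 library. Without the libraries of letter R only 1 ND library is left, so no count against ND is given for that setting. In CLE against LU it was 0 throughout. The calls over all 12775 tested genes moved as well. On leaving out 1 library they were 1831 to 1954 higher and 1269 to 1493 lower in HFD against ND. In CLE against HFD they were 658 to 899 and 1190 to 1421, and in LU against HFD 464 to 635 and 829 to 1064. In LU against ND they were 443 to 727 and 129 to 238. By the adjusted p alone they were 1109 higher and 526 lower in LU against ND, and 417 and 244 in CLE against ND. In CLE against ND they were 263 higher and 109 lower in the main fit. With only the groups compared they were 0 and 0, and with the letter R as a covariate 209 and 89. The causes of these changes were not tested.

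The labels do not say whether the mouse numbers pair the samples. Deviations of same-numbered mice correlated at -0.10 to 0.19. No differently numbered mice were set beside them, so this cannot decide whether the samples are paired. With the mouse number as a replicate block, in the 9 libraries without HFD, 1 member was called in LU against ND (Hk3), 0 in CLE against ND and 0 in CLE against LU; the same 9 libraries without the block, a setting added after seeing the data, gave 3, 0 and 0. Under the block Pdha1 was -0.74 (limma adjusted p = 0.0651) and Tkt -1.13 (0.0503) in LU against ND. HFD mice share no number with the other groups, so no comparison with HFD has a block. With 3 mice per group and values without counts, small differences and those of low genes such as Aldoc were not resolvable.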
